A study of Drosophila melanogaster with 4 samples.

Results

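The arrestin gene Arr1, the carotenoid uptake gene santa-maria and the CRAL-TRIO gene CG5958 were examined in Drosophila heads after chronic feeding of pilocarpine, an agonist of muscarinic acetylcholine receptors. They were picked out by gene symbol or current NCBI gene ID, with their log2 ratios in this same comparison known, and are 3 of the 1444 genes measured on at least 3 of the 4 arrays. In the reading of the arrays taken as likely, CG5958 lay 1.44-fold above the array median on average and above it on all 4 arrays, Arr1 lay 1.18-fold above it with 1 array below, and santa-maria stayed close to it. Because these values chose the genes, they are given as a description and carry no test.

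Both groups were unmated Oregon-R wild-type males aged 3 to 4 days at the start. The treated group lived for 7 days on food with 1.5 mg/ml pilocarpine (PILO) and the control group for 7 days on normal food (NF). RNA came from 8 pools of whole heads, and each of the 4 two-colour cDNA arrays carried the treated and the control pool of 1 parallel set, which makes the arrays biological replicates. Pilocarpine RNA was in the Cy5 channel on replicates 1 and 2 and in the Cy3 channel on replicates 3 and 4.

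Fly photoreceptors detect light with rhodopsins, receptors that couple to a Gq protein and, through phospholipase C, open TRP and TRPL channels. Arrestins bind light-activated rhodopsin and end its signalling, and Arr1 also takes part in rhodopsin endocytosis. The chromophore of rhodopsin is made from dietary carotenoids: class B scavenger receptors such as ninaD and santa-maria take them up, ninaB cleaves them, and retinoid-binding proteins of the CRAL-TRIO family, such as pinta in retinal pigment cells, take part in what follows. CG5958 carries the same kind of domain, and its ligand is not assumed here.

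Each deposited value is the log2 ratio between the 2 channels of a spot after the authors' normalization. Values were averaged over the paired spots of a probe, and the median probe of each array was subtracted, so that 0 is the median of that array. Between 2310 and 3221 probes had a value on an array. The labels give the dyes but not which channel is the numerator. Reading the ratio as Cy5 over Cy3, the GenePix default, requires replicates 3 and 4 to be turned in sign. This direction is called likely and is not settled. In the other reading, with treated over untreated RNA on every array, nothing is turned. If the ratio were Cy3 over Cy5, every mean of the likely reading would take the opposite sign. In heads a ratio also cannot tell fewer cells of a type from less RNA per cell.

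Arr1 was measured by 1 probe on all 4 arrays. In the likely direction its log2 ratios were 0.21, 0.48, -0.30 and 0.58 on replicates 1 to 4. Replicates 1, 2 and 4 were thus above the array median and replicate 3 below it. The mean was 0.24 ± 0.39 (SD, n = 4), so the spread between arrays exceeded the mean. Of the 748 genes measured on all 4 arrays, 20.5% likewise lay above the median on exactly 3, and 22.5% had a larger mean in absolute size. The mean was 0.42 without replicate 3 and 0.13 without replicate 4. With no sign turned the 4 values were 0.21, 0.48, 0.30 and -0.58, and the mean was 0.10 ± 0.47 (SD, n = 4). Replicate 4 was then the 1 array below the median, and 28.6% of genes showed 3 arrays above it.

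The paired spots of Arr1 disagreed on 2 arrays. On replicate 1 they gave 0.02 and 0.41 after centring, a gap of 0.39 on the log2 scale that is wider than that of 96.2% of the probes with a listed gene and both spots. On replicate 2 they gave 0.78 and 0.17, a gap of 0.61 that is wider than that of 94.5% of such probes. The median gap on these arrays was 0.11 and 0.17. On replicate 3, where Arr1 was below the median, the spots lay within 0.04 of each other. The size of the Arr1 ratio on replicates 1 and 2 therefore depends on which spot is read, although the mean over arrays was 0.23 from the first spots and 0.25 from the second.

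santa-maria had values on replicates 1, 2 and 3. They were -0.21, 0.11 and -0.20 in the likely direction, so that replicate 2 lay above the array median and the other two below. The mean was -0.10 ± 0.18 (SD, n = 3). Of the 199 genes measured on the same 3 arrays only, 38.7% also lay above the median on exactly 1. Among the 696 genes with values on 3 arrays, 61.5% had a larger mean in absolute size and 75.1% a larger SD. Most such genes thus varied more between arrays than santa-maria. The mean was -0.05 without replicate 1 or without replicate 3 and -0.20 without replicate 2. With no sign turned the values were -0.21, 0.11 and 0.20 with a mean of 0.04 ± 0.21 (SD, n = 3), on the other side of 0, and 32.7% of the 199 genes had 2 arrays above the median. Its paired spots differed by 0.09, 0.15 and 0.14, near the median gap of listed probes.

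CG5958 was measured by 1 probe on all 4 arrays and had the highest mean of the 3 genes. Its log2 ratios were 0.20, 1.09, 0.32 and 0.50 in the likely direction. Every array was above its median, with replicate 2 the highest. The mean was 0.53 ± 0.39 (SD, n = 4). Of the 748 genes on 4 arrays, 7.35% were above the median on all of them, and 2.41% had a higher mean. On replicate 2, CG5958 exceeded 98.4% of the measured genes. On replicates 1, 3 and 4 it exceeded between 79.0% and 88.8%. The mean was 0.34 without replicate 2.

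The ratio of CG5958 as deposited changed sign with the dye. Both arrays with pilocarpine in Cy5 were above the median, at 0.20 and 1.09, and both with pilocarpine in Cy3 were below it, at -0.32 and -0.50. With no sign turned the mean was therefore 0.12 ± 0.71 (SD, n = 4), and 50.7% of genes had a larger mean in absolute size. The paired spots on replicate 2 gave 1.09 and 1.08, so the highest value of CG5958 was found in both spots. On replicate 3 they gave 0.19 and 0.45 in the likely direction, a gap wider than that of 81.4% of listed probes.

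**Figure D1:**
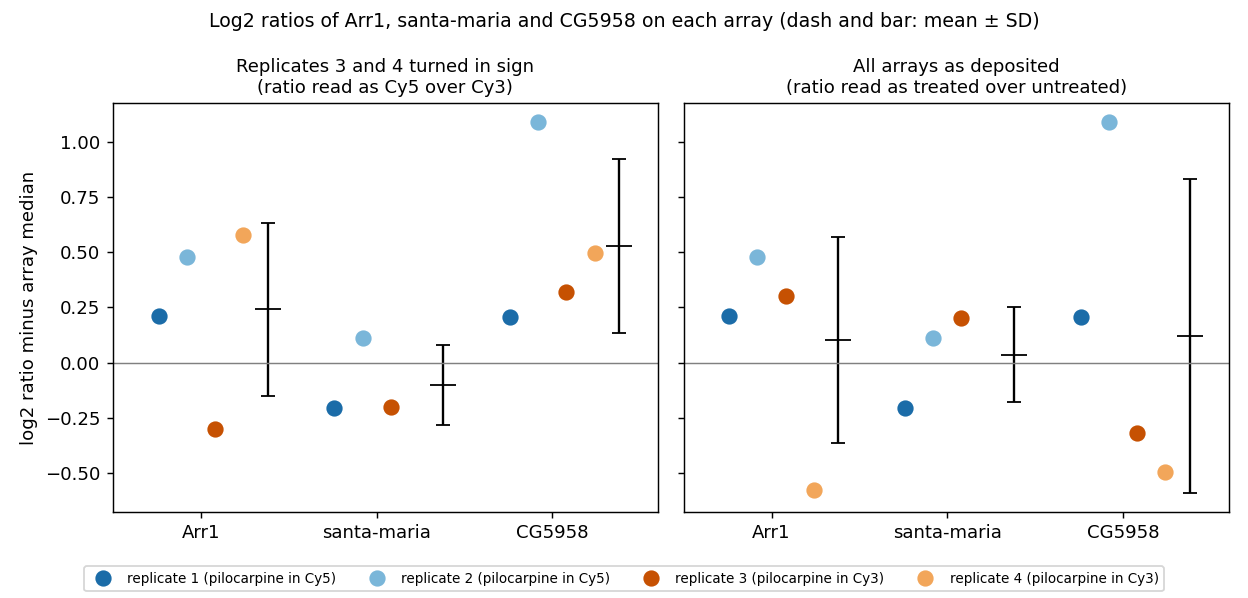
Log2 ratio minus the array median (vertical axis) for Arr1, santa-maria and CG5958 on each array (dots), with replicates 3 and 4 turned in sign on the left and as deposited on the right; dashes and bars are mean ± SD over 4, 3 and 4 arrays. CG5958 is above 0 on all 4 arrays on the left and splits by dye on the right, while Arr1 has 1 array below 0 in either panel.

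**Figure D2:**
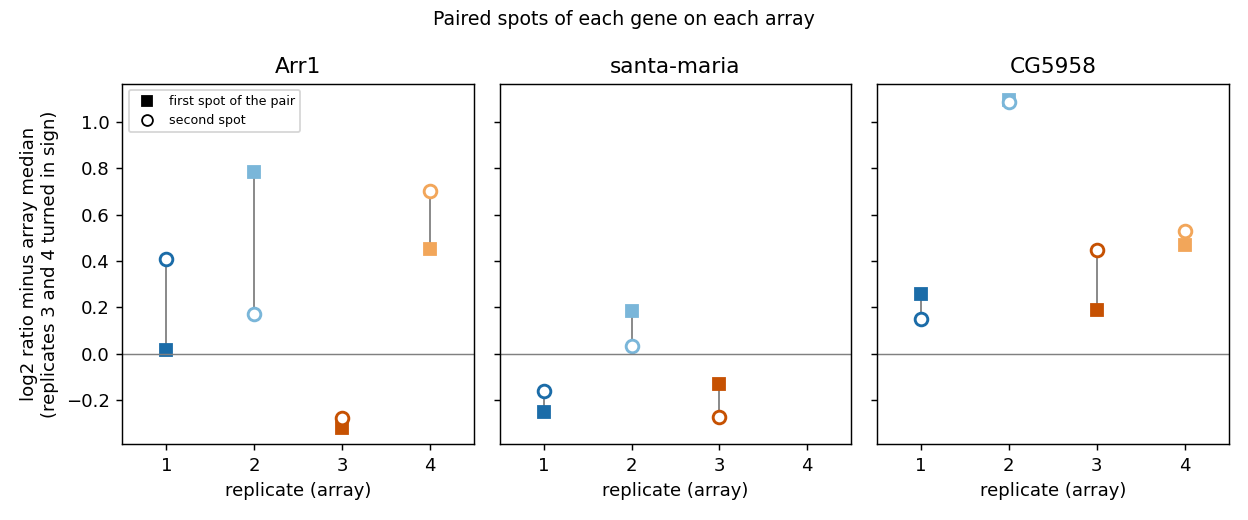
Log2 ratio minus the array median (vertical axis, replicates 3 and 4 turned in sign) of the first spot (filled square) and second spot (open circle) of each pair, by replicate (horizontal axis). The Arr1 spots are 0.39 and 0.61 apart on replicates 1 and 2, whereas the CG5958 spots of replicate 2 lie together at 1.09 and 1.08.

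The reading of the dye-swapped arrays moved CG5958 most among the 3 genes. The absolute difference between its 2 means was 0.41 on the log2 scale, larger than for all but 19.3% of the genes on 4 arrays. For Arr1 it was 0.14, and 64.4% of these genes moved more. For santa-maria it was also 0.14, and 70.1% of the genes on 3 arrays moved more. Over all their arrays Arr1 and CG5958 had positive means in both readings, and the mean of santa-maria changed sign. In the reading with no sign turned the positive means rested on replicate 2: without it Arr1 was at -0.02 and CG5958 at -0.20.

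**Figure D3:**
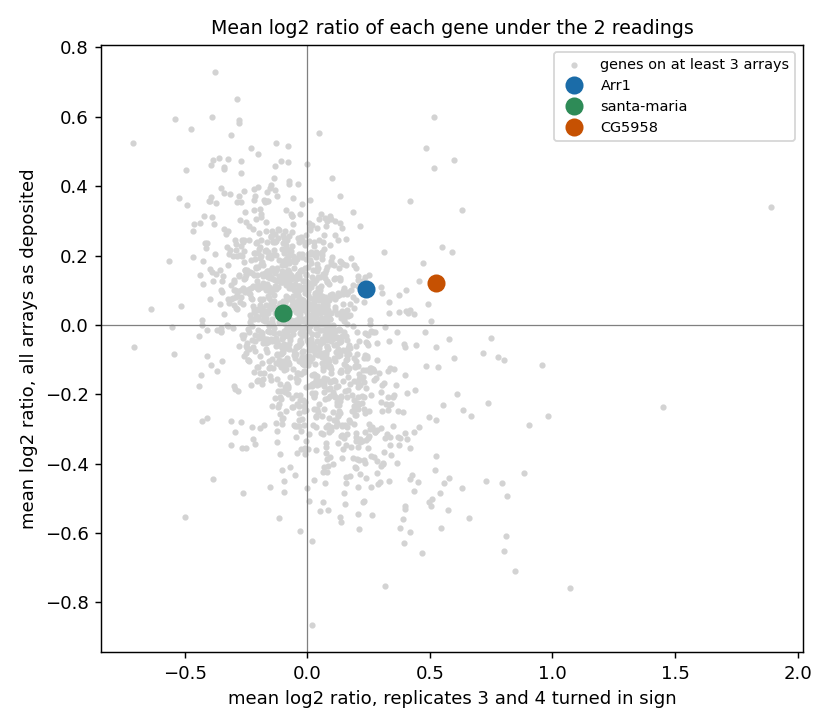
Mean log2 ratio with replicates 3 and 4 turned in sign (horizontal axis) against the mean with all arrays as deposited (vertical axis) for the 1444 genes on at least 3 arrays (grey), with the 3 genes in colour. CG5958 lies at 0.53 and 0.12, Arr1 at 0.24 and 0.10, and santa-maria near the origin at -0.10 and 0.04.

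The 3 genes were also set against each other within an array, and no difference between them was tested. In the likely direction santa-maria was below CG5958 on each of the 3 arrays that measured both, by 0.41, 0.98 and 0.52 on the log2 scale. The order on replicate 3 was the opposite with no sign turned. Arr1 and CG5958 were within 0.08 of each other on replicates 1 and 4 but 0.61 and 0.62 apart on replicates 2 and 3, with CG5958 the higher in the likely direction. In the other reading Arr1 was the higher of them on replicate 3. Arr1 minus santa-maria was 0.42, 0.37 and -0.10 on replicates 1 to 3 in the likely direction. With no sign turned it was 0.42, 0.37 and 0.10. In the gene order of the Release 6 plus ISO1 MT assembly all 3 genes lie on chromosome arm 2L. CG5958 and santa-maria are separated there by a single protein-coding gene, CG5973, which encodes a further CRAL-TRIO protein, and Arr1 is next to the carotenoid receptor gene ninaD, which had no value here. CG5973 had log2 ratios of -0.71, 0.36, -0.52 and 0.25 in the likely direction, 2 arrays above and 2 below the median. Its mean of -0.15 ± 0.54 (SD, n = 4; limma adjusted p = 0.946) did not pass the test, and with no sign turned it was -0.02. CG5973 had the signs of santa-maria on the 3 arrays that measured both, and the sign of CG5958 on replicates 2 and 4 only. Of the 199 genes measured on replicates 1 to 3 only, 38.7% were above the median on exactly 1 in the likely direction, whichever array it was. That set holds santa-maria but not CG5973, so it is no background for the shared signs. The share of genes with these same signs was not counted, and no result about neighbouring genes is drawn from them.

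Other genes of vision and of the 2 protein families were taken from lists of 125 further names, of which 20 genes had values on at least 3 arrays. None of the 20 passed the test over all genes in either direction (limma, lowest adjusted p = 0.636), and with no sign turned none passed either (lowest adjusted p = 0.56). Before adjustment 1 gene in each reading had a p under 0.05. The background is low: in the likely direction 2 of 1444 genes passed as higher (0.139%) and 0 as lower, with 107 at an unadjusted p under 0.05 in either direction, and with no sign turned 0 passed, with 126 unadjusted. The median of the 20 genes was -0.10 in the likely direction and 0.04 with no sign turned, beside -0.01 and 0.00 over all 1444 genes. Of the 20 means, 7 were above 0 in the likely direction and 11 with no sign turned. Their range in the likely direction was from -0.35 to 0.43. The mean of CG5958 lay above that range, but CG5958 was chosen with its value known, so its place is a description only.

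Among the genes that act with Arr1 on the receptor, the rhodopsin phosphatase gene rdgC was the 1 measured. It was at 0.04 ± 0.10 (SD, n = 4; limma adjusted p = 0.986). Its signs were those of Arr1, above the median on replicates 1, 2 and 4 and below it on replicate 3, at values between -0.11 and 0.12. The histamine synthesis gene Hdc had the same signs in the likely direction, at 0.11, 0.39, -0.39 and 0.22. Of the genes on 4 arrays, 20.5% lay above the median on exactly 3, whichever array was below, and the share with these same signs was not counted. Arr2 and Gprk2 are listed on the array and had no value here. None of 7 rhodopsin genes had one, so the ratios cannot be set against the receptors themselves, and the photoreceptor content of the heads was not checked through them. Spots of the photoreceptor genes Hdc, trpl, inaC and inaD, of which the last 3 were chosen after their values were seen, were measured on all 4 arrays.

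Of 26 names of the phototransduction cascade, 7 were measured and none passed. The sodium-calcium exchanger gene Nckx30C had the largest mean, 0.43 ± 0.47 (SD, n = 4; limma adjusted p = 0.636), with 0.03, 0.22, 1.10 and 0.38 on replicates 1 to 4. Like CG5958 it was above the median on all 4 arrays in the likely direction, but its highest array was replicate 3. In the other reading it was at -0.31. The retinophilin gene rtp was at -0.27 ± 0.28 (SD, n = 4; limma adjusted p = 0.825). The phosphatidylinositol transfer gene rdgB was at -0.23 ± 0.19 (SD, n = 3; limma adjusted p = 0.914), below the median on each of its 3 arrays, and Galphaq, the G protein subunit that rhodopsin activates, at -0.13 ± 0.13 (SD, n = 4). The share of genes on the same side of the median on replicates 1, 3 and 4, the arrays of rdgB, was not counted. In the other reading rtp, rdgB and Galphaq were above 0, at 0.06, 0.19 and 0.03. inaC, the eye protein kinase C, was at 0.04 in the likely direction and at -0.29 ± 0.07 (SD, n = 4; limma adjusted p = 0.56) with no sign turned, the 1 visual gene at an unadjusted p under 0.05 there.

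In chromophore handling, the retinoid dehydrogenase gene Pdh was measured beside santa-maria and CG5958. It was at -0.17 ± 0.38 (SD, n = 3; limma adjusted p = 0.939), above the median on replicate 3 and below it on replicates 1 and 4. The other 7 of the 10 names on that list, ninaB, ninaD and pinta among them, were not tested. Of 15 names of the class B scavenger receptor family, emp was measured besides santa-maria. Its values of -0.49, -0.06 and -0.49 on replicates 1 to 3 had replicate 2 the highest, as in santa-maria, and its mean was -0.35 ± 0.25 (SD, n = 3; limma adjusted p = 0.769). The mean with no sign turned was -0.02.

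The CRAL-TRIO family gave 5 further genes of 22 names. None passed, and their means lay between -0.21 for CG3823 and 0.20 for CG31826 in the likely direction, with a median of -0.06. CG31826 was above the median on each of its 3 arrays, at 0.14, 0.36 and 0.09 on replicates 1, 3 and 4, and at -0.10 with no sign turned. How many genes lay above the median on each of these 3 arrays was not counted. No difference between CG5958 and these family members was tested. Of the genes for histamine, the transmitter of photoreceptors, 3 of 9 were measured and none passed. In the likely direction the synthesis gene Hdc was at 0.08, the recycling gene t at -0.26 and the transporter gene ine at -0.17. With no sign turned Hdc, t and ine were at 0.17, 0.11 and 0.27. The pteridine pigment genes Pu and pr, the 2 measured of 17 eye pigment names, were at -0.15 and 0.03, and no name of the rhabdomere or eye transcription factor lists was measured.

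**Figure D4:**
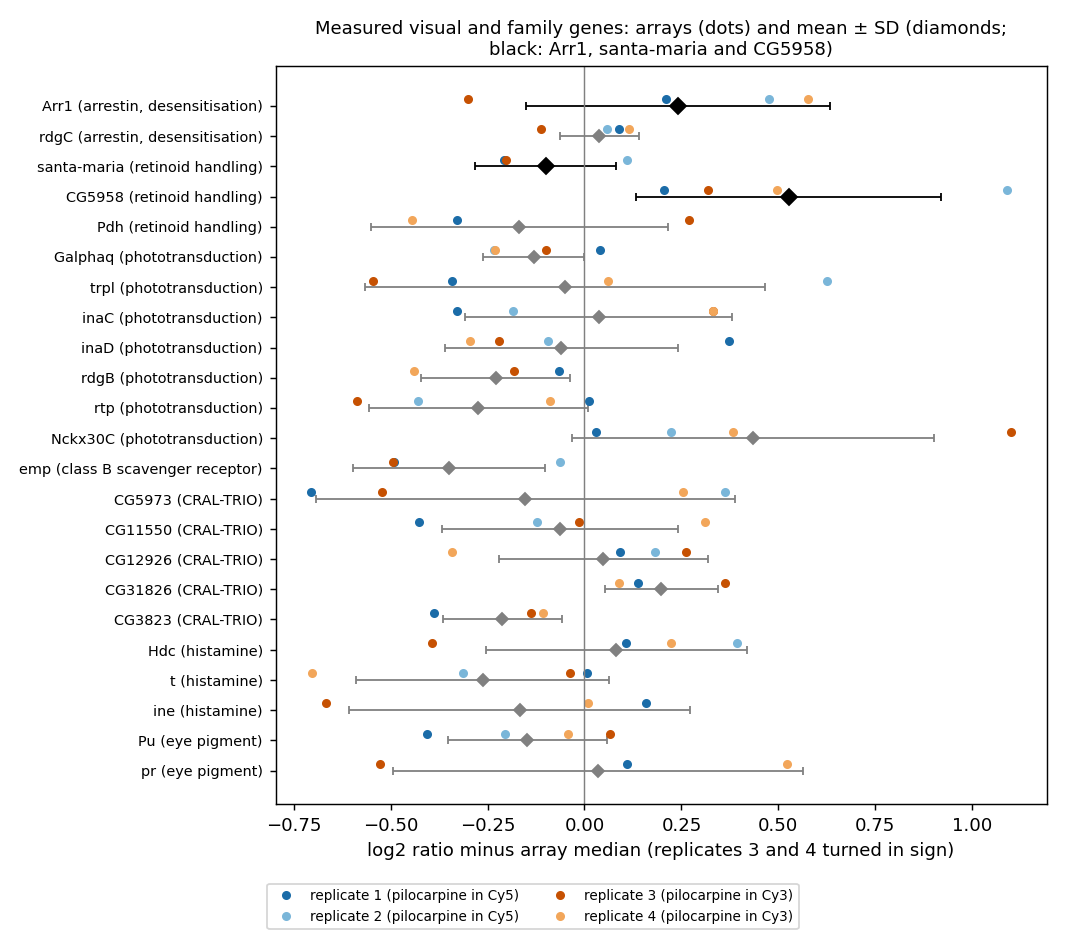
Log2 ratio minus the array median (horizontal axis, replicates 3 and 4 turned in sign) for the 3 genes (black) and the 20 other measured genes of the lists (grey), with dots for arrays and diamonds with bars for mean ± SD. CG5958, which was chosen with its value known, has the highest mean at 0.53. Nckx30C follows at 0.43, and the remaining means lie between -0.35 and 0.24, with arrays on both sides of 0 for most of them. Of the 20 grey means 7 are above 0, and their median is -0.10.

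The genes with the most similar values were found by the root mean square difference over the arrays that measured each of the 3. This distance is the same in both readings, whereas the values on replicates 3 and 4 take the opposite sign with no sign turned. For Arr1, among 747 genes on 4 arrays, they were eEF1delta, CG17896, atilla, eEF5 and CG10435, at 0.10 to 0.18 on the log2 scale against a median of 0.52 over all genes. In the likely direction each of them was, like Arr1, below the median on replicate 3 and highest on replicate 4 or replicate 2. Because the genes were picked for closeness on these same arrays, shared patterns follow from the choice and are a description only. For CG5958 they were CG11843, mRRF2, Sfxn1-3, CG10863 and PIG-N, at 0.09 to 0.21 against a median of 0.71. All 5 were highest on replicate 2, which again follows from the choice. CG11843, the nearest, had 0.25, 1.05, 0.17 and 0.42 in the likely direction. For santa-maria, among 946 genes over 3 arrays, they were Ip259, CG33143, Alr, RpL15 and CG14017, at 0.02 to 0.05 against a median of 0.34. Among the genes nearest to CG5958, Arr1 came at place 42 of 747, and CG5958 came at place 238 of 747 for Arr1 and at place 874 of 946 for santa-maria. Arr1 came at place 428 of 946 for santa-maria, at 0.33 against the median of 0.34.

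Markers of other head tissues were read beside these ratios. Of 10 fat body markers 7 were measured, and 1 of them passed as higher in the likely direction, the lipoprotein gene apolpp at 1.45 ± 0.67 (SD, n = 4; limma adjusted p = 0.0274). The desaturase gene Desat1, at 0.78 ± 0.41 (SD, n = 4; limma adjusted p = 0.177), was also above the median on all 4 arrays and did not pass. The 7 means ran from -0.09 for sxe2, named after its values were seen, to 1.45, with a median of 0.14 in the likely direction and -0.24 with no sign turned. As deposited apolpp was at -0.24 and did not pass, and its call also ended without replicate 2 or replicate 4. Of 9 markers of olfactory organs 3 were measured, of which Obp19c passed at 1.89 ± 0.96 (SD, n = 3; limma adjusted p = 0.0274), and Obp19d and Obp56d were at 0.01 and 0.11. The value of Obp19c was 0.27 with 1 probe per gene, 0.90 where both paired spots were required and 0.34 with no sign turned. It passed in none of these settings, nor without replicate 2. Obp19c has no value on replicate 4, so its mean stayed at 1.89 without that array, although it did not pass there either. Of 10 muscle markers 5 were measured, with a median of -0.11 in the likely direction and -0.12 with no sign turned, and none passed. In the likely direction 1 of the 5 means was above 0, Act79B at 0.09. The lowest were Mlc1 at -0.41 ± 0.07 (SD, n = 3; limma adjusted p = 0.636) and Mlc2 at -0.27. With no sign turned Mlc1 and Mlc2 were at -0.09 and -0.03. The glial gene Gs2 and the haemocyte gene Col4a1 were the 1 measured of each list, at 0.09 and 0.13 in the likely direction. With no sign turned they were at 0.09 and -0.34. No neuronal marker of the list was measured. Since ratios give no level, summed levels of these lists cannot be formed, and their part in the ratios of Arr1, santa-maria and CG5958 was not tested.

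**Figure D5:**
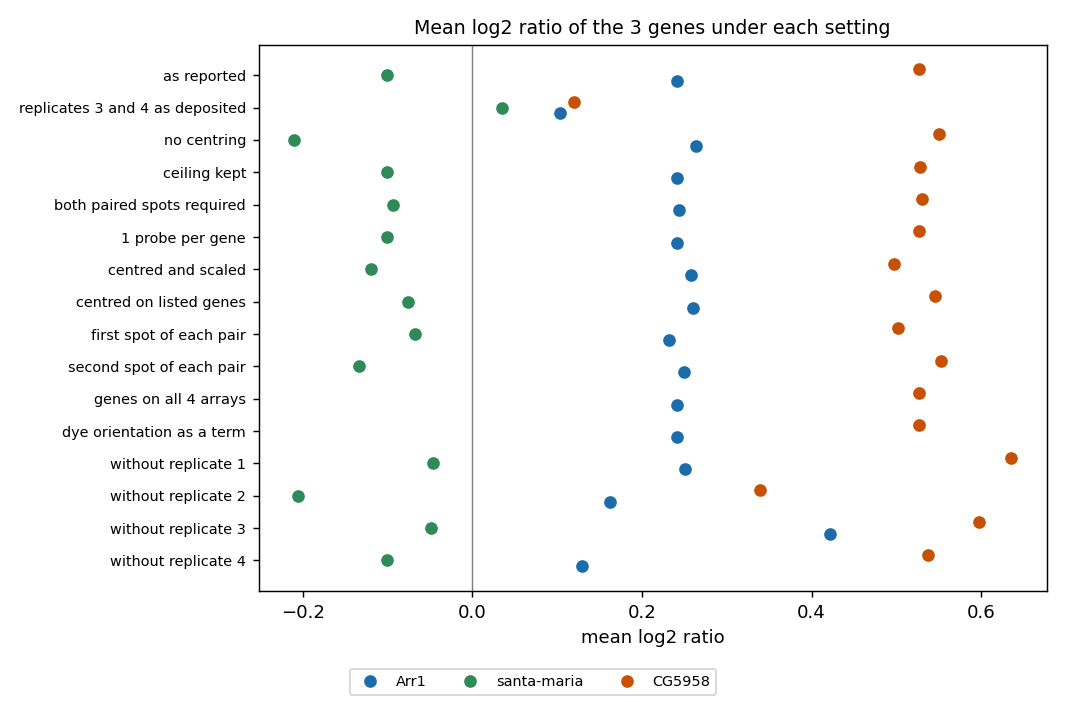
Mean log2 ratio (horizontal axis) of Arr1, santa-maria and CG5958 under each processing setting (vertical axis); a point is missing where santa-maria, measured on 3 arrays, could not enter a fit that needs all 4. Arr1 stays between 0.10 and 0.42 and CG5958 between 0.12 and 0.63, and santa-maria is above 0 in the reading with no sign turned.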

How the data were processed

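Spots were quantified in GenePix Pro 6.0 and their ratios normalized in Acuity 4.0, per the series' design text. The authors filtered spots on saturation, flags, uniformity and signal over background and used SAM 3.0. The deposited values are log2 ratios, with empty cells for spots left out. That the logarithm is to base 2 was read from the highest value, 16.61, which recurs in 11 cells and is the log2 of 100000; these cells were dropped. Background correction could not be varied, as scanner intensities were not analysed here.

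Adjacent spots shared their listed gene in all 7609 pairs that list one, and pairs were averaged. Of 3236 probes with a value, 1510 listed 1 gene, 13 several and 1713 none. Gene names come from the platform annotation, updated through gene IDs. Arrays were centred on the median probe, and 0 other columns were present. The build of the array design was not compared with the gene table, so no coordinates are given.

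The test across genes with values on 3 or more arrays was limma 3.58.1 (R 4.3.3; two-sided, Benjamini-Hochberg adjustment, threshold 0.05), and its script was tested on simulated data. Whether the pools came from separate cultures beyond the parallel sets of vials is not stated. The p-values rest on the spread between arrays, whose number limits the precision. For each gene eBayes combined its own spread with a spread pooled over all genes, weighted by 9.27 prior degrees of freedom. The 3 genes, the lists and the tests were chosen with earlier results of these data known. Genes named in the text are the 3 genes, up to 4 per list by absolute mean and the 5 nearest to each; trpl, inaC, inaD and sxe2 fall outside this rule and were named after their values were seen, and untested genes are named as background. Alternatives covered the reading of the dyes, centring, scaling, spots, probes, eBayes settings and each array left out.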

Additional observations from a re-analysis of the deposited data

Results flagged for a closer look

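Each of the 17 genes among those named from the lists and the 3 genes that had values on all 4 arrays was examined for an array standing apart from the other 3 by Dixon's criterion, and 0 had one.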

How the results depend on the processing

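With 1 choice changed at a time, Arr1 (0.10 to 0.42) and CG5958 (0.12 to 0.63) kept positive means in all 15 alternatives. Both genes have 1 probe and values on all 4 arrays, balanced over the dyes. Taking 1 probe per gene, genes on all 4 arrays or dye orientation as a term could not move them. Keeping cells at 16.61, requiring both spots, no centring or centring on listed genes moved both means alike. None of these settings tests their stability. santa-maria stayed negative in 12 of 13. With no sign turned it was at 0.035 and CG5958 at 0.12. In the likely direction centring moved santa-maria from -0.21 without it to -0.10. Leaving out 1 array in the likely direction gave 0.13 to 0.42 for Arr1, -0.20 to -0.05 for santa-maria and 0.34 to 0.63 for CG5958. With no sign turned the same step gave -0.022 to 0.33 for Arr1, -0.049 to 0.16 for santa-maria and -0.20 to 0.33 for CG5958, crossing 0 for each gene. santa-maria has no value on replicate 4 and entered no fit that needs all 4 arrays. Leaving out replicate 4, keeping cells at 16.61 or taking 1 probe per gene left its mean at -0.10. These settings are among its 13 and say nothing about its stability.

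The count of genes called by limma, 2 as reported, was 0 with no sign turned, 1 when both paired spots were required, 1 with 1 probe per gene, 1 among genes on all 4 arrays, 4 with the dye orientation as a term and 0 without moderation. From the first spots alone 1 passed and from the second 0. These spot settings and centring on listed genes were chosen after seeing the data. The count was 5, 0, 18 and 0 without replicates 1 to 4. apolpp was at -0.24 with no sign turned. The causes were not tested. Of 450 values of 28 other named list genes, 436 stayed on the same side of the threshold. Among these genes only apolpp and Obp19c passed as reported, so the count says little about the stability of the others. A change of sign where neither value passed was counted as the same side. Nckx30C, at 0.43 in the likely direction and -0.31 with no sign turned, was such a case. With 4 arrays, the number of arrays limits what these settings can tell apart.

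Each array holds the treated and the control pool of 1 set, so the test of its ratios against 0 is already a paired one. No paired analysis was possible beyond it because there is 1 group of arrays and no second one that shares its replicate numbers.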
